A study of Mus musculus with 11 samples.

Results

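Immediate early genes are transcribed within minutes of a stimulus, without new protein synthesis. The 10 examined here were Fos, Fosb, Jun, Junb, Jund, Egr1, Atf3, Ier2, Dusp1 and Btg2. All probe sets annotated to them were taken from the deposited tables of 2 Affymetrix array types. The genes were chosen with earlier results of these data known. They are 10 of the 13675 genes named by the annotation of the arrays. This gave 16 probe sets among 24899, of which 15 were on U74Av2, covering all 10 genes, and 1, for Jund, was on U74Bv2. Of the 15, 11 passed the filter on low signals and were tested, at least 1 for each gene, and the U74Bv2 probe set did not pass.

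The arrays held RNA of mouse trigeminal ganglia, which house the sensory neurons of the face, at embryonic day 13.5. Each held a pool of about 10 to 12 ganglia, stored frozen in an RNase-inhibiting solution before pooling, from wild-type embryos or from heterozygotes or homozygotes for a knockout of Brn3a (gene Pou4f1), a transcription factor of sensory neurons. There were 6 U74Av2 arrays, 2 per genotype, and 5 U74Bv2 arrays (2 knockout, 2 heterozygote, 1 wild-type), numbered 1 and 2 within a genotype. The labels do not state the targeting allele, the strain or what a number stands for (a dissection, an RNA pool, a hybridisation). They also do not state whether the U74Av2 and U74Bv2 arrays of a number share RNA.

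In neurons many of these genes, though not all to the same degree, are switched on by calcium entry and by growth factor signalling, through MAP kinases, CREB and serum response factor. Fos and Jun proteins pair to form the AP-1 transcription factor, Egr1 is a zinc-finger factor, and Dusp1 feeds back by removing phosphate from MAP kinases. Atf3 and Jun are also known to rise in sensory neurons after their axon is cut, and several of these genes are known to respond to tissue handling, so their level in dissected ganglia can carry a trace of the dissection. In pooled tissue, fewer cells of a type and less RNA per cell cannot be told apart.

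The tissue label was checked on U74Av2, where the neuronal genes Stmn2 (11085.4 to 14717.5), Uchl1 (10789.2 to 14278.4) and Isl1 (2295.7 to 3503.9) had high signals on every array. Signals below are MAS5 signals on a linear scale, which cannot be compared between probe sets as transcript levels. Differences are on the scale log2(signal + pseudocount), with SE from limma. Called means a Benjamini-Hochberg adjusted p under 0.05 over all 7453 probe sets tested on U74Av2.

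Between genotypes none of the 11 tested member probe sets was called, where 0.255% (knockout against wild-type), 0.188% (knockout against heterozygote) and 0% (heterozygote against wild-type) of all probe sets were. Between replicate numbers 3 of 11 were called, near the 24.4% of all probe sets. Jund and Btg2 were lower and Dusp1 was higher in the number 2 arrays of all 3 genotypes. The other members had no call, among them Fos, Fosb, Jun, Egr1 and Atf3.

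**Figure D1:**
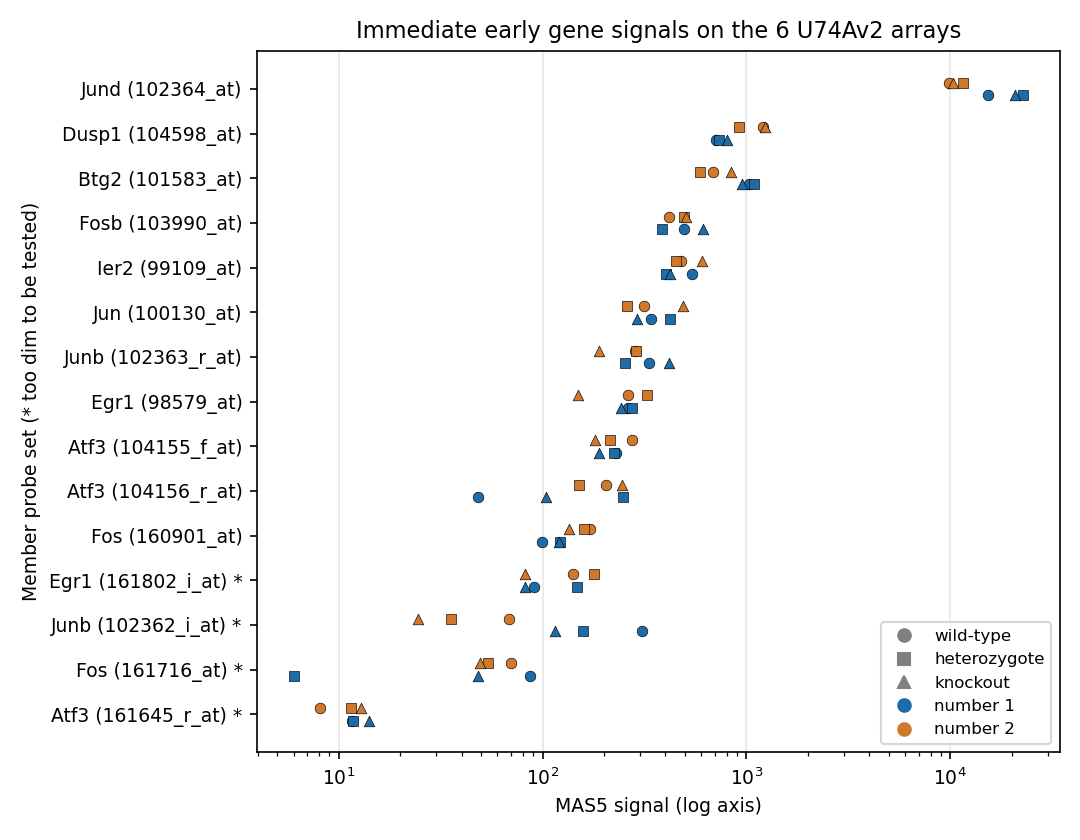
MAS5 signal on a log axis of the 15 member probe sets on each of the 6 U74Av2 arrays, with genotype as the symbol and replicate number as the colour; an asterisk marks the probe sets too dim to be tested. Blue (number 1) and orange (number 2) points are apart for Jund, Dusp1 and Btg2, which were called between numbers. They are also apart for Fos by 160901_at, which was not called, and for the untested Junb 102362_i_at. The symbols for genotype are mixed in most rows.

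Among the AP-1 subunits, Jund, a Jun family member, was measured on U74Av2 by probe set 102364_at. Its signals were 15361.5 and 9875.2 in wild-type arrays 1 and 2, 22805.8 and 11546.9 in heterozygotes, and 20696.7 and 10262.5 in knockouts. All number 1 arrays lay above all number 2 arrays, whereas the genotypes overlapped. The mean signal was 12618 ± 3879 (SD, n = 2) in wild-type, 17176 ± 7961 in heterozygote and 15480 ± 7378 in knockout ganglia. Jund was 1.83-fold lower in number 2 than in number 1 (log2 difference -0.87 ± 0.12 SE, 95% confidence interval -1.15 to -0.60, limma adjusted p = 0.00639). Knockout minus wild-type was 0.24 ± 0.45 (interval -0.82 to 1.30, adjusted p = 1.00) in the fit that leaves out the number, 0.43 within number 1 and 0.06 within number 2. The further Jund probe set, on U74Bv2, was dim, at 20.4 for wild-type, 44.8 and 21.7 for heterozygote, and 49.5 and 53.5 for knockout ganglia, and its number difference was -0.40 in heterozygotes and 0.06 in knockouts. It was too dim to be tested and did not show the pattern of the U74Av2 probe set.

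Fos, the partner of the Jun proteins and the classical activity marker, lay just above the filter on low signals. Its probe set 160901_at read 99.2 and 170.5 in wild-type arrays 1 and 2, 122.2 and 160.3 in heterozygotes, and 120.9 and 135.0 in knockouts. Every number 2 array was above every number 1 array, but by little: the difference was 0.32 ± 0.21 SE (adjusted p = 0.290), made up of 0.56 in wild-type, 0.29 in heterozygote and 0.11 in knockout ganglia. Between knockout and wild-type Fos differed by -0.03 ± 0.31 (interval -0.77 to 0.71, adjusted p = 1.00). Without wild-type array 1 this difference was -0.31, and without wild-type array 2 it was 0.25, so its sign rested on which of them was used. A further Fos probe set, 161716_at, lay between 6.0 and 87.0 and was not tested.

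Fosb, which also pairs with Jun proteins, read 493.0 and 419.0 in wild-type, 385.6 and 491.9 in heterozygote, and 610.9 and 505.1 in knockout arrays 1 and 2. The knockouts were the highest without overlap, at a mean of 558 ± 74.8 (SD, n = 2) against 456 ± 52.3 in wild-type. The difference of 0.26 ± 0.24 SE (interval -0.30 to 0.82, adjusted p = 1.00) did not pass, and the number difference was -0.05 ± 0.15 (adjusted p = 0.835).

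Jun, the founding AP-1 subunit, read 339.2 and 314.4 in wild-type, 423.4 and 258.9 in heterozygote, and 289.1 and 490.2 in knockout arrays 1 and 2. Neither factor ordered these values: the number difference was -0.62 in heterozygotes and 0.67 in knockouts, and -0.01 ± 0.24 SE over all (adjusted p = 0.972). Knockout minus wild-type was 0.18 ± 0.32 (interval -0.58 to 0.95, adjusted p = 1.00).

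Junb, a further Jun family member, was measured by a pair of probe sets whose differences did not have the same size, nor always the same sign. The tested 102363_r_at read 333.8 and 283.4 in wild-type, 254.6 and 285.6 in heterozygote, and 417.1 and 188.9 in knockout arrays 1 and 2, with a number difference of -0.34 ± 0.22 SE (adjusted p = 0.287). The dimmer 102362_i_at read 307.0 and 68.1 in wild-type, 158.1 and 35.6 in heterozygote, and 115.2 and 24.6 in knockout arrays. In the dimmer probe set every number 1 array lay above every number 2 array, and number 2 minus number 1 was -1.60 in wild-type, -1.28 in heterozygote and -1.15 in knockout ganglia on the log2 scale. It did not pass the filter on low signals. In the fit without that filter it was called (-1.34 ± 0.21, limma adjusted p = 0.0223). For knockout minus wild-type the pair stood at -0.10 ± 0.34 (102363_r_at, adjusted p = 1.00) and -0.89 (102362_i_at, not tested). Knockout minus heterozygote was 0.06 by 102363_r_at and -0.27 by 102362_i_at. Within heterozygotes the number difference of 102363_r_at was 0.14, opposite in sign to that of 102362_i_at.

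Atf3, a stress-responsive partner of AP-1 proteins, had 3 probe sets, none of them of the standard type. The 104155_f_at probe set read 227.9 and 273.3 in wild-type, 223.8 and 213.1 in heterozygote, and 188.5 and 181.1 in knockout arrays 1 and 2. Wild-type values were highest and knockout values lowest, without overlap. The knockout difference from wild-type, -0.35 ± 0.24 SE (interval -0.92 to 0.21), did not pass (adjusted p = 1.00). The 104156_r_at probe set pointed the other way (0.43 ± 0.53, adjusted p = 1.00), with 48.2 and 205.0 in wild-type, 248.2 and 151.6 in heterozygote, and 104.3 and 245.4 in knockout arrays. The third, 161645_r_at, lay between 8.1 and 14.0 on all arrays. A genotype pattern of Atf3 therefore rested on 1 of its probe sets.

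Egr1, which couples MAP kinase signals to transcription, was lowest in knockouts by both of its probe sets. The tested 98579_at read 262.2 and 261.8 in wild-type, 274.0 and 326.1 in heterozygote, and 242.7 and 149.6 in knockout arrays 1 and 2, without overlap between genotypes. The dimmer, untested 161802_i_at read 90.4 and 140.9 in wild-type, 148.0 and 178.8 in heterozygote, and 82.1 and 82.0 in knockout arrays. For 98579_at the difference from wild-type was -0.37 ± 0.28 SE (interval -1.02 to 0.28, adjusted p = 1.00) and that from heterozygotes was -0.53 ± 0.28 (unadjusted p = 0.0952, adjusted p = 1.00), neither of which passed. Most of it came from knockout array 2: within number 1 knockout minus wild-type was -0.09, and within number 2 it was -0.64. The number difference of Egr1 was -0.11 ± 0.19 (adjusted p = 0.692).

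Ier2, a nuclear protein of the immediate early class, read 537.7 and 479.6 in wild-type, 404.2 and 450.7 in heterozygote, and 422.7 and 608.4 in knockout arrays 1 and 2. The knockout values lay on either side of the wild-type values, with means of 516 ± 131 and 509 ± 41.1 (SD, n = 2) and an interval of the log2 difference from -0.58 to 0.58. Within number 1 the difference was -0.31 and within number 2 it was 0.31. The number difference was 0.16 ± 0.15 SE (adjusted p = 0.478).

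The pair of feedback and growth-restraining genes differed between replicate numbers in opposite directions. Dusp1, the MAP kinase phosphatase, read 711.8 and 1204.7 in wild-type, 730.2 and 920.8 in heterozygote, and 805.7 and 1226.3 in knockout arrays 1 and 2. It was 1.45-fold higher in number 2 (log2 0.54 ± 0.12 SE, interval 0.25 to 0.83, limma adjusted p = 0.0222), with no overlap of the numbers. Knockout minus wild-type was 0.10 ± 0.33 (interval -0.67 to 0.86, adjusted p = 1.00).

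Btg2, an antiproliferative co-regulator that is also a p53 target, read 1030.0 and 688.1 in wild-type, 1089.5 and 591.9 in heterozygote, and 952.2 and 837.5 in knockout arrays 1 and 2. It was 1.43-fold lower in number 2 (-0.52 ± 0.15 SE, interval -0.86 to -0.17, limma adjusted p = 0.0416), again with no overlap. The size within genotypes was -0.55 in wild-type, -0.83 in heterozygote and -0.18 in knockout ganglia. Knockout minus wild-type was 0.08 ± 0.33 (interval -0.71 to 0.87, adjusted p = 1.00). The call of Btg2 was the least firm of the 3. It was lost without the filter (adjusted p = 0.0770), without the intensity trend (0.0689), without either wild-type array (0.153 and 0.157) and without either heterozygote array (0.155 and 0.152). That of Dusp1 was lost without either wild-type array (0.120 and 0.129) or either knockout array (0.0718 and 0.0769), and that of Jund was kept in each of these settings (0.0164 to 0.0295). Atf3 by 104156_r_at was called, higher in number 2, without either heterozygote array (1.16, adjusted p = 0.0307 and 0.0259).

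The sequences upstream of the genes with a number difference are shown beside that of Fos because the genes moved in different directions, to let their regulatory elements be compared. Promoters of 8 of the 10 genes, all but Egr1 and Ier2, were taken from RefSeq tables of build GRCm38.p6. The 250 bases before the annotated start are given 5′ to 3′. Capitals mark matches, on either strand, to the TATA box (TATAAA), the cyclic AMP response element (TGACGTCA) and its core (TGACG), which the full element contains on both strands.
Fos, chr12:85473640-85473889, plus strand: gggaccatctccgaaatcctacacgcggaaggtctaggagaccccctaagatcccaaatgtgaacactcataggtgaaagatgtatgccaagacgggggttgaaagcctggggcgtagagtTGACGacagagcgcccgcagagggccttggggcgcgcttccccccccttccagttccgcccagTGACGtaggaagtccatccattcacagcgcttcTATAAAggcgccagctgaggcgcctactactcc
Jund, chr8:70697489-70697738, plus strand: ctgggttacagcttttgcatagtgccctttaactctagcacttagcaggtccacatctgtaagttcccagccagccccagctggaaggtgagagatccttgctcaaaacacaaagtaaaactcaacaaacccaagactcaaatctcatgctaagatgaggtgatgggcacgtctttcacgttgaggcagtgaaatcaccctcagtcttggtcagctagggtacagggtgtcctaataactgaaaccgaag
Dusp1, chr17:26508473-26508722, minus strand: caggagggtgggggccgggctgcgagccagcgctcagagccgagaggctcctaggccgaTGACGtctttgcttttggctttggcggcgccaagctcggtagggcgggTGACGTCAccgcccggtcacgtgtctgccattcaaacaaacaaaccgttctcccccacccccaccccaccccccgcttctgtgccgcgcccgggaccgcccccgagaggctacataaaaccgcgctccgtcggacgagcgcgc
Btg2, chr1:134079156-134079405, minus strand: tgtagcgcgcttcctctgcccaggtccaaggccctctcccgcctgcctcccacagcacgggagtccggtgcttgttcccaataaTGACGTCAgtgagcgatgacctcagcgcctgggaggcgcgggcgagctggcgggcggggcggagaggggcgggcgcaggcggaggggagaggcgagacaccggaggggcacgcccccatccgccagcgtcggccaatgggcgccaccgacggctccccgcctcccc

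The full cyclic AMP response element lay at -143 to -136 from the start of Dusp1 and at -166 to -159 from that of Btg2, genes that differed between numbers in opposite directions. It was in 2 of the 8 member promoters and in 1.55% of all 32851 promoters of that length. The core TGACG was in 6 of 8 against 17.8%, among them Fos (at -129 to -125 and -66 to -62) but not Jund. The GC box (GGGCGG) was in 6 of 8 against 32.7% and the TATA box in 1 of 8, at -33 to -28 of Fos, against 12.4%. Neither the AP-1 site (TGANTCA), found in 6.75% of promoters, nor the CArG box of serum response factor, found in 1.47%, was in any of the 8 windows. A match, or the lack of one, is a description of the letters in these windows only. Sequence further upstream was not scanned, nor were Egr1 and Ier2.

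The members' counts are read here against those of all probe sets. Of the 7453 tested, 0.255% were called in knockout against wild-type (19, of which 0 of 11 members) and 0.188% in knockout against heterozygote (14, 0 of 11 members). In heterozygote against wild-type 0% were called, with 52 at an unadjusted p under 0.05. No member reached an unadjusted p under 0.05 in any of the 3 genotype comparisons by limma, where 381, 391 and 52 of all probe sets did. Between numbers 24.4% of all probe sets were called, 13.5% higher and 10.9% lower in number 2, and 3 of 11 members (1 higher, 2 lower), a share near that background. Without overlap between numbers were 4 of 11 members and 40.1% of all probe sets, and between knockout and wild-type 3 of 11 members and 28.5% of all. Knockout and heterozygote did not overlap in 3 of 11 members and 27.8% of all, nor heterozygote and wild-type in 3 of 11 and 18.7%.

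The median size (absolute log2 difference) over the 11 members was 0.185 for knockout against wild-type and 0.193 for knockout against heterozygote, beside 0.183 and 0.172 over all tested probe sets. For heterozygote against wild-type it was 0.162 beside 0.130, and for the numbers it was 0.322 beside 0.285. The Jund difference between numbers was exceeded in size by 5.02% of all tested probe sets, that of Dusp1 by 21.1% and that of Btg2 by 22.7%.

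**Figure D2:**
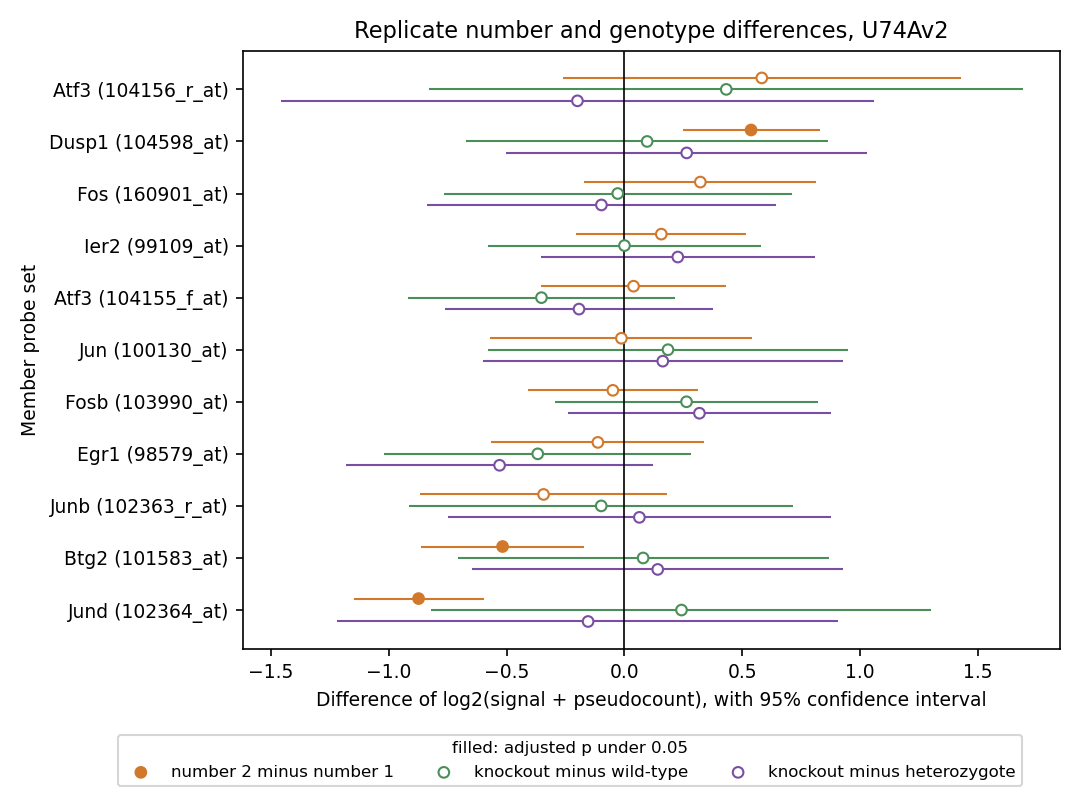
Differences of log2(signal + pseudocount) with 95% confidence intervals for the 11 tested member probe sets, number 2 minus number 1 (orange), knockout minus wild-type (green) and knockout minus heterozygote (purple); filled points were called. The 3 filled points are the number differences of Jund (-0.87), Btg2 (-0.52) and Dusp1 (0.54), and every genotype interval includes 0. Number differences come from the fit with genotype and number, genotype differences from the fit without the number. The spread between numbers therefore enters the genotype intervals only, and the widths of the 2 kinds of interval are not comparable.

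The balanced U74Av2 layout of 3 genotypes by 2 numbers allowed the variation of each probe set to be divided. Number took 85.0% of the sum of squares for Jund, 79.2% for Dusp1, 75.9% for Btg2 and 71.7% for Fos, where genotype took 11.8%, 13.1%, 3.78% and 4.67%. The reverse held for Atf3 by 104155_f_at (genotype 82.5%, number 1.47%), Egr1 by 98579_at (62.7% and 4.07%) and Fosb (52.7% and 1.67%). Jun lay in neither, with 91.1% in the rest. Genotype has 1 more degree of freedom than number in this layout. Number exceeded genotype in 6 of the 11 members and in 56.7% of all tested probe sets. The median share of number was 26% over the members and 41.5% over all, and that of genotype 13.1% and 26.7%.

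**Figure D3:**
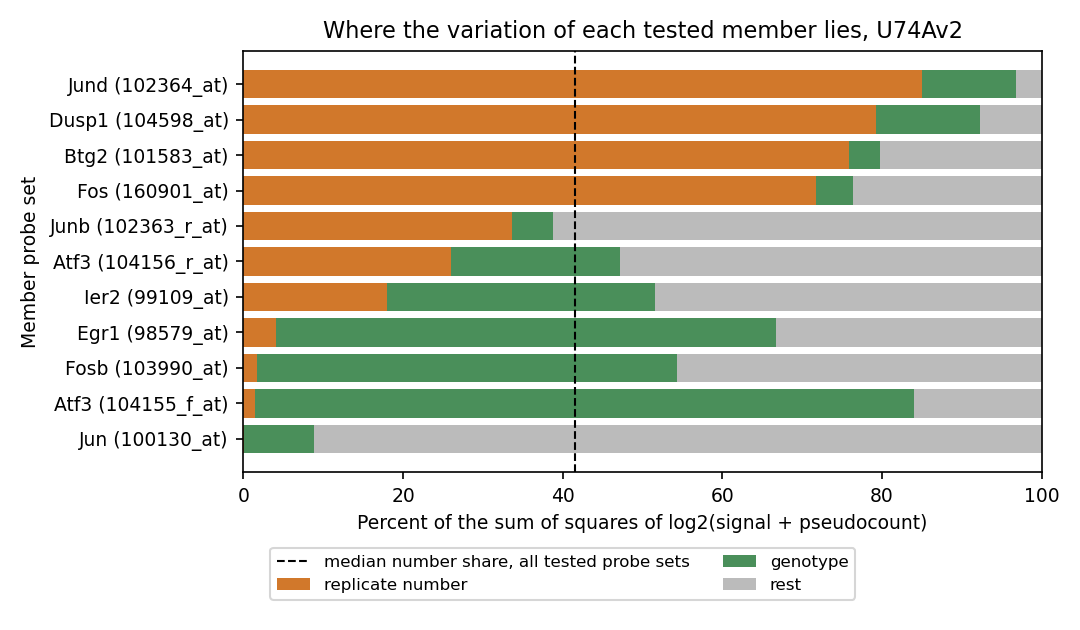
Percent of the sum of squares of log2(signal + pseudocount) due to replicate number (orange), genotype (green) and the rest (grey) for the 11 tested member probe sets on U74Av2, with the median number share of all tested probe sets (41.5%) as a dashed line. Jund, Dusp1, Btg2 and Fos lie above that line, and the other 7 below it.

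Other properties of the arrays moved with the number. Control probe sets for 18S ribosomal RNA, 3 in number, had geometric means of 5173 to 12803 in number 1 and of 511 to 974 in number 2. The β-actin 3′ control was 1.45- to 2.04-fold higher in number 1, and the 5′ control 1.46- to 1.93-fold. Gapdh controls differed less, with ratios of number 1 to number 2 of 1.11 to 1.29 (3′) and 0.997 to 1.21 (5′). The brightest probe sets as a class were lower in number 2. Among the 125 tested probe sets above the 99th percentile of brightness, where Jund lay, the median difference was -0.19, 77.6% were lower, and 31.2% were called lower against 0.8% called higher. Jund, at -0.87, was lower than that median, and under quantile normalization, which equalises the distributions, it stood at -0.60 (adjusted p = 0.00913). Dusp1 and Btg2 lay between the 80th and 90th percentiles, where the median was 0.03 and 15.3% were called lower and 17.5% higher. The part of these array properties in the members' differences was not tested.

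**Figure D4:**
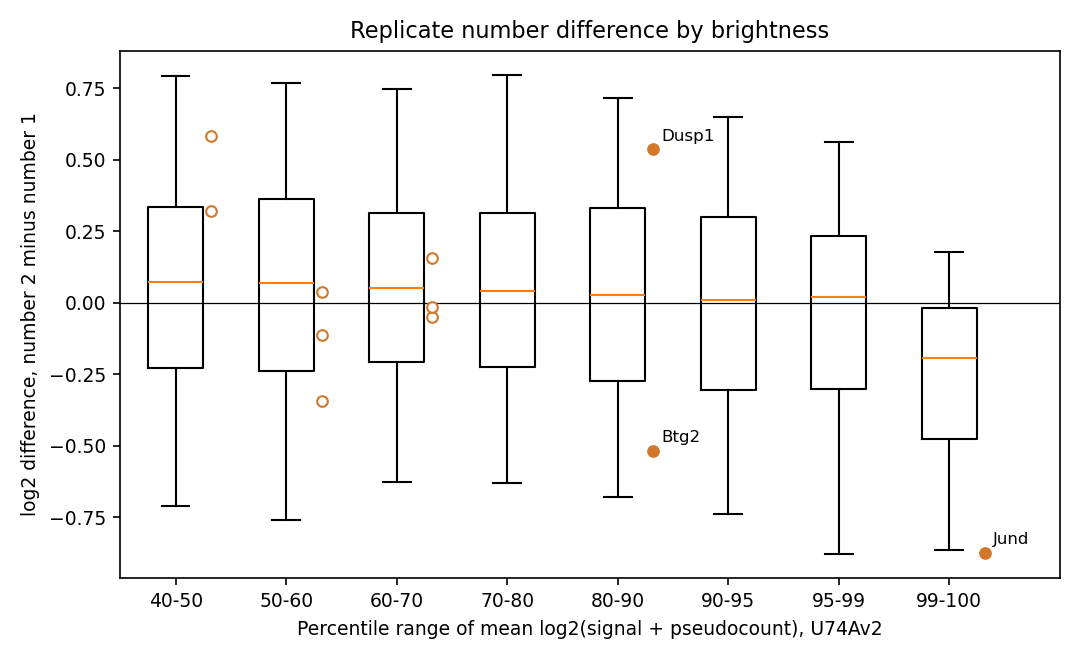
Log2 difference between number 2 and number 1 by percentile range of mean log2(signal + pseudocount) on U74Av2; boxes give the quartiles and median of all tested probe sets in a range, whiskers the 5th and 95th percentiles, and orange circles the members, filled where called. The top 1% range has a median of -0.19 with Jund just below its lower whisker, and Dusp1 and Btg2 lie on opposite sides of 0 between the whiskers of their range.

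Of 35 other immediate early genes on U74Av2, 21 were tested, and none was called in the 3 genotype comparisons (medians of -0.01, -0.11 and 0.09 for knockout against wild-type, knockout against heterozygote and heterozygote against wild-type, beside 0.02, 0.02 and -0.01 over all probe sets). The brightest were Plk3 (0.42 ± 0.44 SE for knockout against wild-type, -0.04 against heterozygote, 0.46 for heterozygote against wild-type), the kinase Plk2 (-0.72 ± 0.22, -0.50 and -0.22) and the kinase Pim1 (0.23 ± 0.23, 0.14 and 0.10). Between numbers 5 were higher and 1 was lower in number 2, and 15 did not pass, where 13.5% of all probe sets were called higher and 10.9% lower. The list median was 0.36 beside 0.04 over all and -0.01 over the members.

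The 6 were led by Zfp36l1, an mRNA decay factor, at 969.4, 763.3 and 1005.0 in wild-type, heterozygote and knockout number 1 arrays and 1982.0, 1358.5 and 2217.5 in number 2 (0.96 ± 0.11 SE, limma adjusted p = 0.00563). The transcription factors Myc (0.79, adjusted p = 0.0362) and Klf6 (0.68, adjusted p = 0.0120), the survival factor Mcl1 (0.51, adjusted p = 0.0225) and the cytokine feedback inhibitor Socs3 (0.50, adjusted p = 0.0388, family probe set) were also higher in number 2. Plk3, by a probe set of relaxed design, was lower (-0.82, adjusted p = 0.0117). Of these 6, Socs3 overlapped between numbers (199.4 to 494.1 in number 1, 347.1 to 631.2 in number 2), and the other 5 did not. Over all probe sets 40.1% did not overlap, and the 6 were picked for their call on the same difference. The list held genes on the side of Dusp1 and, in Plk3, on the side of Jund and Btg2.

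Kinases and factors upstream of immediate early genes included 11 tested genes. None was called between genotypes (medians of -0.03, 0.08 and -0.07 in the same order), and the 3 brightest, Mapk8, Mapkapk2 and Atf2, lay between -0.18 and 0.18. Between numbers 2 were higher in number 2, Map2k1, the kinase that activates ERK (0.96 ± 0.16 SE, limma adjusted p = 0.00960), and the neuronal JNK Mapk10 (0.43, adjusted p = 0.0448), and 9 did not pass. Over all probe sets 13.5% were called higher.

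Heat shock and cell stress genes, 22 tested, showed no call between genotypes (medians of -0.02, -0.12 and 0.08), and the 3 brightest, Hsp90aa1, Hspd1 and Dnaja1, lay between -0.17 and 0.19. Between numbers 5 were higher in number 2, 0 lower, and 17 did not pass (median 0.20 beside 0.04 over all). Called shares over all probe sets were 13.5% higher and 10.9% lower. Xbp1, a transcription factor of the unfolded protein response, read 741.8, 720.0 and 608.4 in number 1 and 1560.0, 1558.8 and 1382.5 in number 2 (1.07 ± 0.11 SE, limma adjusted p = 0.00552). The endoplasmic reticulum chaperone Hspa5 (0.83, adjusted p = 0.0144) and its co-chaperone Dnajb9 (1.16, adjusted p = 0.00885) were higher with it, as were Ddit4, an inhibitor of mTOR signalling (1.25, adjusted p = 0.00417), and the mitochondrial chaperonin Hspe1 (0.72, adjusted p = 0.00695). These 5 genes did not overlap between numbers, nor did 40.1% of all probe sets. The 5 were picked for their call on the same difference, so their lack of overlap adds little.

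**Figure D5:**
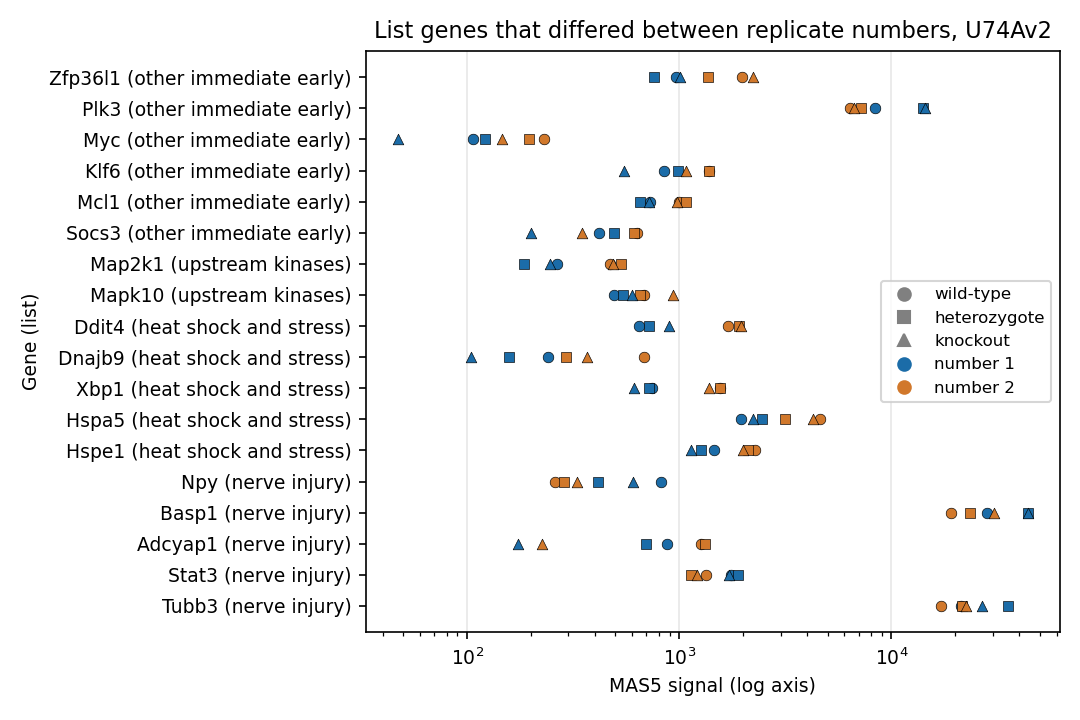
MAS5 signal on a log axis of the 18 list genes called between replicate numbers on the 6 U74Av2 arrays, with genotype as the symbol and number as the colour. For Zfp36l1, Xbp1, Ddit4 and Hspe1 the orange (number 2) points lie above all blue ones in every genotype, and for Plk3 and Npy they lie below.

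Nerve injury genes, a list apart from Atf3 and Jun, included 13 tested genes. The neuropeptide galanin (Gal) was lower in knockout than in wild-type (-2.01 ± 0.19 SE, limma adjusted p = 0.0125) and heterozygote ganglia (-2.0, adjusted p = 0.0188), and the other 12 did not pass. Medians over all 13, Gal included, were -0.06 and -0.17. The list was drawn up with earlier results of these data known, so its direction is not independent evidence. In heterozygote against wild-type none was called, with the brightest, Basp1 at 0.48 ± 0.36, Tubb3 at 0.54 ± 0.28 and Sox11 at -0.07 ± 0.22. Between numbers 4 were lower in number 2, namely Npy (-0.91), Basp1 (-0.66), Stat3 (-0.52) and the neuronal tubulin Tubb3 (-0.43, adjusted p = 0.0496), and the neuropeptide Adcyap1 was higher (0.55, adjusted p = 0.0333). Of all probe sets 10.9% were called lower and 13.5% higher. Basp1 and Tubb3 were brighter than Jund on every array. They thus lay above the 99th percentile of brightness, where 31.2% were called lower and 0.8% higher. Basp1 overlapped between numbers (28125.6 to 44123.7 in number 1, 19025.5 to 30502.7 in number 2), as did Tubb3 (21164.7 to 35465.1 and 17183.0 to 22418.0). Adcyap1 also overlapped, but was higher in number 2 within each genotype. It read 879.7 and 1260.8 in wild-type, 696.9 and 1317.9 in heterozygote, and 174.5 and 225.5 in knockout arrays 1 and 2. Both knockout values lay below all others, a genotype difference that did not pass. Npy and Stat3 did not overlap between numbers, nor did 40.1% of all probe sets.

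On U74Bv2, with 1 residual degree of freedom for the number, 0.201% of 7446 tested probe sets were called between numbers. None of 12 other immediate early genes, 7 upstream kinases and factors, 1 stress gene and 5 nerve injury genes was called between numbers there, with list medians of 0.01, -0.01, -0.19 and 0.18. Klf6, called on U74Av2, stood at 0.14 ± 0.19 SE on U74Bv2 (limma adjusted p = 0.902), and Basp1 at 0.01 ± 0.15 (adjusted p = 0.997). Between genotypes, Ngfr and Cacna2d1 of the nerve injury list were lower in knockout than in heterozygote ganglia (-1.52 and -1.0, limma adjusted p = 0.00521 and 0.0400), and Ngfr also than in wild-type (-1.31, adjusted p = 0.0319), where 1.71% and 1.4% of all probe sets were called. Wild-type is 1 array on U74Bv2, so that comparison assumes that it varies like the arrays of the other genotypes.

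Markers of other cells also differed between numbers on U74Av2, whereas none of the 8 marker lists had a called gene in the 3 genotype comparisons. The counts between numbers below stand beside 13.5% of all probe sets called higher and 10.9% called lower in number 2. Uncalled genotype differences included Meis2, of the central nervous system list, at -1.74 for knockout against wild-type (limma adjusted p = 0.111) and -1.76 against heterozygote (0.0963). The gene of that list tested on U74Bv2, Slc1a3, pointed the other way, also uncalled. It stood at 1.46 against wild-type, which is 1 array there, and at 1.47 against heterozygote. Whether either gene marks central nervous tissue in these ganglia was not tested. By sign alone, 1 of 10 sensory neuron genes was higher in knockout than in heterozygote ganglia, with a list median of -0.21 beside 0.02 over all. Against wild-type, 5 of 10 were higher in knockouts (median -0.02 beside 0.02) and 9 of 10 in heterozygotes (median 0.19 beside -0.01). Of 6 red blood cell genes 4 were lower in number 2, including the embryonic globins Hbb-bh1 (-1.41), Hba-x (-0.66) and Hbb-y (-0.61), and the summed signal of the list was 56672 to 78414 in number 1 and 48149 to 57695 in number 2. Of 6 macrophage genes 3 were lower (summed 2921 to 3139 against 2144 to 2589), as were 2 of 7 skeletal muscle genes (3029 to 3374 against 2478 to 2931). Of 9 Schwann cell and satellite glia genes 5 were higher, such as the myelin gene Mbp (0.96), and the glial factor Sox10 was lower (-0.70), with summed signals of 19092 to 26349 and 20844 to 23164. Of 10 connective tissue genes 3 were higher and 1 lower (summed 17565 to 21213 against 16018 to 19849). Of 10 neuronal genes Prph was higher and Tubb3 lower (summed 99678 to 129896 against 100307 to 112869). Tubb3 lay in the brightest range, where 31.2% of probe sets were called lower. No call was made among 7 endothelial genes (summed 2890 to 3272 against 3424 to 3542). Nor was the 1 gene tested of the central nervous system list called. Summed over its 7 probe sets, that list read 512.6 to 744.1 against 720.7 to 802.3. Each of these sums covers all U74Av2 probe sets of a list, untested ones included. MAS5 signals are above 0 by construction, so no marker is listed at 0. The part of these cells in the members' differences was not tested.

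The 5 genes whose U74Av2 profile was most like that of Fos, by Pearson correlation of log2 values over the 6 arrays, were Cops5 (0.996), Rtn3 (0.988), Fth1 (0.988), Kif2a (0.987) and Ccdc88a (0.986, incomplete probe set). With 7453 profiles and 6 arrays, correlations of this height are easily found. The arrays also share the split by number. Cops5, a subunit of the COP9 signalosome, read 917.8 and 1648.8 in wild-type, 1142.4 and 1458.3 in heterozygote, and 1133.7 and 1259.0 in knockout arrays 1 and 2. None of the 5 was another immediate early gene of the lists.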

How the data were processed

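Trigeminal ganglia of mouse embryos were profiled on 11 Affymetrix arrays. The authors deposited a linear-scale intensity for each probe set, computed with MAS5 according to the submitters' processing notes. Its version, scaling target and detection calls are not stated there. The 2% trimmed mean lay between 500.26 and 500.29 on U74Av2 and between 497.61 and 498.38 on U74Bv2, so no further scaling was applied. Probe sets took the symbol of the platform annotation, updated through Entrez identifiers with a RefSeq table (assembly GRCm38.p6).

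Before analysis a pseudocount (50.0 for U74Av2, 49.8 for U74Bv2) was added and log2 taken, so differences of dim probe sets are understated. Manufacturer's controls were left out, as were probe sets with a mean at or below the 40th percentile. Genotypes were compared in limma 3.58.1 (R 4.3.3), with genotype as the factor, an intensity trend in eBayes, and all arrays of a type in the fit. Replicate numbers were compared in the same model with the number added. Tests were two-sided, and calls required an adjusted p (Benjamini-Hochberg, over all tested probe sets) under 0.05. Labels do not tie arrays to animals beyond the pool, so p-values reflect only how far these arrays spread, which may be technical. The scripts were tested on simulated data. Plots used matplotlib 3.10.9.

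Shares of variation are sums of squares for genotype, number and the rest in the 3 by 2 layout of U74Av2. Named genes are all members, up to 6 called genes per list (or the 3 brightest where the list is described), and the 5 genes most alike to Fos on U74Av2. The lists cover other immediate early genes, upstream kinases, heat shock and stress, nerve injury, and markers of 8 tissues and cell types. Members and lists were chosen with earlier results of these data known. Alternatives were other pseudocounts, filters, quantile normalization, no intensity trend, the number as a block or alone, and leaving out each array.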

Additional observations from a re-analysis of the deposited data

How the results depend on the processing

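No member was called between genotypes under any of the 39 combinations of a U74Av2 genotype comparison with an alternative. Between numbers on U74Av2, the count of called members was 2 or 3 under all alternatives other than leaving out an array, where it ranged from 1 to 3, with 1 left without either wild-type array. Leaving out an array of a genotype takes that genotype out of the number comparison. Without the filter 3 members were called, of which 2 were in common with the reported ones, Btg2 giving way to a dim Junb probe set.

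Counts over all probe sets were less stable. On U74Av2, knockout against wild-type gave 19 called, 11 with the filter at the 60th percentile and 0 to 15 with an array left out (0 without knockout array 1, 5 without knockout array 2, 4 and 2 without wild-type array 1 and 2). Knockout against heterozygote gave 14, then 8 and 0 to 11 (0 and 5 without knockout array 1 and 2, 3 and 2 without heterozygote array 1 and 2). The number comparison gave 1820, then 1142 without the filter and 355 to 1192 with an array left out. On U74Bv2, knockout against wild-type gave 104, 21 without the filter, 40 without the intensity trend and 115 to 178 with an array left out. Knockout against heterozygote gave 127, then 54, 81 and 130 to 188. Heterozygote against wild-type gave 0 and 0 to 10 with an array left out. The U74Bv2 number comparison gave 15, 42 with the larger pseudocount, 1 without the filter, 5 at the 60th percentile, 2 under quantile normalization, and 0 without the trend and with number alone. The cause of these shifts was not tested.

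With the replicate number as a block, knockout against wild-type gave 130 calls on U74Av2 and 216 on U74Bv2, knockout against heterozygote 129 and 317, and heterozygote against wild-type 0 and 7. No member was called with the block. Number differences of the genotypes correlated at 0.533 to 0.619 over U74Av2 probe sets and at 0.103 on U74Bv2. With 2 numbers this does not show that the arrays were paired. The median number share of the members stayed between 23.2% and 26.5%, and the genotype share between 12.5% and 13.1%. Few arrays and low signals limit what could be seen for Fos and for the dim probe sets.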
